A study of Homo sapiens with 4 samples.

Results

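The loci described here are human microRNA genes of the conserved, early-numbered set: every probe set whose platform annotation gives a symbol starting with MIRLET7, or MIR followed by a number below 300, apart from host genes and from MIR21, MIR221, MIR222, MIR100, MIR125B1 and MIRLET7A2. The rule used names only, not measured values. It found 181 probe sets for 167 loci, of 14884 named genes on the array. They were measured in the breast cancer cell line MDA-MB-231Br, which the sample titles shorten to MDA-MB-231. Cells had received lentivirus with a control hairpin (shControl, 2 arrays) or a hairpin against YTHDF3 (shYTHDF3, 2 arrays) and had been selected with puromycin; both groups shared the virus and the selection. Nothing in the labels says how many hairpins against YTHDF3 were used, whether cells were cloned, or whether replicate arrays stand for cultures grown apart. The p-values therefore speak only to the spread among these 4 arrays, which may be technical. Values are log2 expression as deposited, listed with replicate 1 before replicate 2, and a difference is always shYTHDF3 minus shControl on the log2 scale.

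A microRNA is transcribed as a long primary transcript, cropped in the nucleus to a hairpin by Drosha and its partner DGCR8, exported, cut by Dicer and loaded as a short mature strand into an Argonaute protein. Bases 2 to 8 of the mature strand, the seed, pair with target mRNAs, and loci that lie close together on the same strand are often cut from the same primary transcript. The m6A mark, which YTHDF3 reads on cytoplasmic mRNA, is also found on primary microRNA transcripts, where it is known to favour cropping. The array labelled total RNA, so its values do not tell primary transcript, hairpin and mature strand apart, and no measurement of mature microRNA was used here.

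Mature strands are printed below for the loci with the clearest or largest differences, together with their nearest relatives, because shared seeds show which of these loci would make strands with the same target preference. The strand given for each locus is the arm usually taken as the main product, with the seed in capitals, 5′ to 3′. All 30 were read from RefSeq (GRCh38.p14) and hold 21 different seeds, of which 6 are shared. The miR-181 family has the same seed at its loci on chromosome 1 (MIR181A1, MIR181B1) and chromosome 19 (MIR181C, MIR181D), and miR-181b and miR-181d differ only by C12U, counted from the 5′ end.
hsa-miR-181a-5p (MIR181A1): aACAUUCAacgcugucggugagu
hsa-miR-181b-5p (MIR181B1): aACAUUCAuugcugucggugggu
hsa-miR-181c-5p (MIR181C): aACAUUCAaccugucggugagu
hsa-miR-181d-5p (MIR181D): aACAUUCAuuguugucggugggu
MIR23A, MIR27A and MIR24-2 lie on chromosome 19, MIR23B and MIR27B on chromosome 9. Over the positions both have, miR-23a differs from miR-23b only by U19A, and miR-27a from miR-27b only by C19U.
hsa-miR-23a-3p (MIR23A): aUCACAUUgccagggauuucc
hsa-miR-23b-3p (MIR23B): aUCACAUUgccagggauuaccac
hsa-miR-27a-3p (MIR27A): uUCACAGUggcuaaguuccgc
hsa-miR-27b-3p (MIR27B): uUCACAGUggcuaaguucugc
hsa-miR-24-3p (MIR24-2): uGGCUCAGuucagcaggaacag
The strands printed for the miR-15/16 family, the let-7 family and the family of MIR103A2 and MIR107 also share seeds within each family.
hsa-miR-15a-5p (MIR15A): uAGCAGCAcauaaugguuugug
hsa-miR-16-5p (MIR16-1): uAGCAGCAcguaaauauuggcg
hsa-miR-195-5p (MIR195): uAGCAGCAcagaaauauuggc
hsa-miR-98-5p (MIR98): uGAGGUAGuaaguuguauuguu
hsa-let-7e-5p (MIRLET7E): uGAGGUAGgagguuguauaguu
hsa-miR-103a-3p (MIR103A2): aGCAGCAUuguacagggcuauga
hsa-miR-107 (MIR107): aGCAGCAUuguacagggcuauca
The remaining strands each had a seed of their own in this set.
hsa-miR-197-3p (MIR197): uUCACCACcuucuccacccagc
hsa-miR-210-3p (MIR210): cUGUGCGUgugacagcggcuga
hsa-miR-29c-3p (MIR29C): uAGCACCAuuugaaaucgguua
hsa-miR-146a-5p (MIR146A): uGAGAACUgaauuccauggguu
hsa-miR-33b-5p (MIR33B): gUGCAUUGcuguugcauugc
hsa-miR-142-3p (MIR142): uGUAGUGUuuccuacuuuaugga
hsa-miR-152-3p (MIR152): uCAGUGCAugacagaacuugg
hsa-miR-184 (MIR184): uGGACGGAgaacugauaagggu
hsa-miR-187-3p (MIR187): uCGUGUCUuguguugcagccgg
hsa-miR-218-5p (MIR218-1): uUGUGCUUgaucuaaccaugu
hsa-miR-26b-5p (MIR26B): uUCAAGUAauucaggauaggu
hsa-miR-25-3p (MIR25): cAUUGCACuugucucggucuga
hsa-miR-130b-3p (MIR130B): cAGUGCAAugaugaaagggcau
hsa-miR-134-5p (MIR134): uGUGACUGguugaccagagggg

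Over the 12755 genes tested, arrays of a group correlated at 0.992 in both groups. The median of each array over all probe sets lay between 3.20 and 3.22. Medians cannot show whether an array stood apart, because the deposited values had already been normalized by RMA. The correlation within a group is shared by its arrays, so it cannot show which of them differed. No probe set was named YTHDF3, so the knockdown labels have no check from the targeted transcript here. Markers of a mesenchymal breast line such as VIM and AXL lay at means of 9.87 and 11.2, while the luminal genes ESR1 and PGR lay at 2.87 and 2.67. The luminal list was not low throughout. ERBB3, ESRP1, GRHL2, KRT8 and GATA3 lay between 2.59 and 4.62, but KRT18, EPCAM and KRT19 lay at 8.71, 6.70 and 6.57. These were above the mesenchymal factor ZEB1 at 6.15, and CD68, listed as a leukocyte marker, lay at 10.6. Of 6 tested mesenchymal markers, at levels of 6.15 to 11.2, the matrix gene FN1 fell (difference -1.499, adjusted p = 0.012 from limma). None of 10 tested luminal markers, at 2.59 to 8.71, and none of 3 tested leukocyte and stromal markers, at 2.56 to 10.6, passed. The part of these differences in the values of the loci was not tested.

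Most of the microRNA loci gave weak signals. The loci of 167 whose mean over the 4 arrays reached the filter of 2.54 (the 30th percentile of all probe sets) numbered 91, or 54.5%, against 85.7% of all named genes. These 91 had a median level of 3.75, against 4.97 for all genes tested, and only 18 of them reached a mean of 5. The other 76 loci, with means between 1.68 and 2.52, were not tested. Just inside the filter were MIR196A1, MIR9-3 and MIR214, at 2.54, 2.55 and 2.55, and just outside were MIR296, MIR26A1 and MIR181B2, at 2.52, 2.51 and 2.51. Among the tested loci, 4 (MIR23A, MIR151A, MIR188 and MIR9-3) had a shYTHDF3 mean below the filter and 3 (MIR196A1, MIR196B and MIR214) a shControl mean below it, and these passed only through their higher group.

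**Figure D1:**
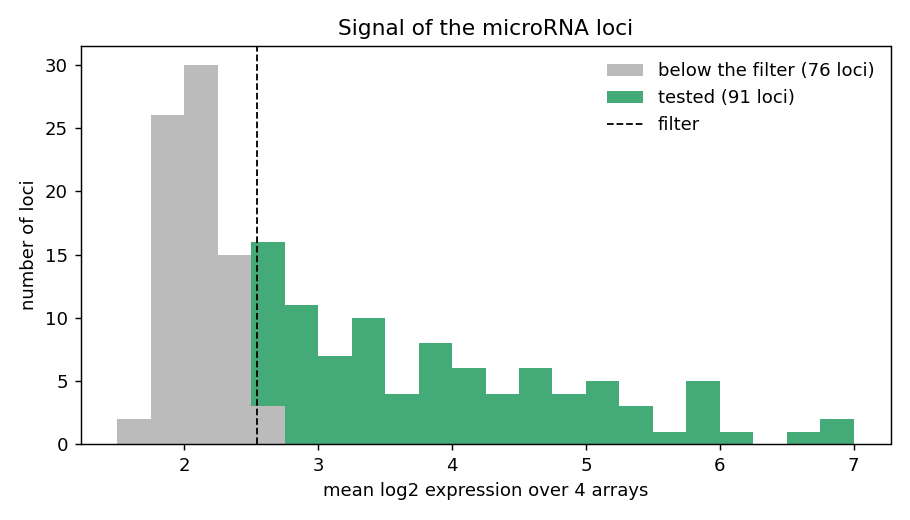
Mean log2 expression of the 167 microRNA loci over 4 arrays (horizontal axis, bins of the log2 scale) against the number of loci in each bin, stacked as tested loci and loci below the filter (dashed line, 2.54; the bin it crosses holds some of each). The 76 loci below the filter lie between 1.68 and 2.52, and the tested loci thin out towards 6.80.

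Several clusters and tissue-restricted loci lay wholly below the filter. The polycistron of MIR106A, MIR18B, MIR20B, MIR19B2 and MIR92A2 on the X chromosome, a paralogue of the miR-17-92 cluster, had means of 1.76 to 1.97. MIR183, MIR96 and MIR182, a cluster of epithelial and sensory cells, lay at 2.17 to 2.25, and the cardiac loci MIR208A and MIR208B at 1.85 and 1.73. MIR122, the main liver microRNA, lay at 1.85 and MIR223, a myeloid microRNA, at 2.32. Of the miR-200 clusters, which hold cells in an epithelial state, MIR200C lay below the filter and MIR141, MIR200A and MIR200B between 2.62 and 3.20. At the other end MIR130B (6.80), MIR181B1 (6.75), MIR146A (6.61), MIR24-2 (6.07), MIR210 (5.96) and MIR99B (5.96) had the highest means. Levels of different probe sets are not on a common scale, so this order describes signal and not abundance. Across the 149 loci with a hairpin in the RefSeq table, mean level and the G+C content of the hairpin had a Spearman correlation of 0.43 (Pearson 0.39), and the median G+C content was 53.1% for tested and 47.0% for untested loci. The points share the arrays and their background correction, and the part of base composition in the probe signal was not tested.

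None of the 91 tested loci passed limma at an adjusted p under 0.05 in either direction, where the share of all genes was 0.753% (0.666% lower, 0.0862% higher). At an unadjusted p under 0.05 limma gave 18 loci, 14 lower and 4 higher in the shYTHDF3 arrays. That is 19.8% of the tested loci, beside 14.7% of all genes tested (8.48% lower and 6.24% higher). Among the 14 lower loci, MIR23A passed the filter only through its control group. The arrays of the 2 groups did not overlap for 25 lower and 14 higher loci, 42.9% in all, beside 45.5% of all genes (22.8% lower, 22.6% higher). By direction, 27.5% of the tested loci separated with lower and 15.4% with higher knockdown values, and neither share was tested against all genes. Differences were below 0 for 56 of the 91 loci (61.5%, beside 49.2% of all genes), with a median of -0.10, beside 0.00 for all genes tested, and ranged from -0.81 to 0.63. The larger of the gaps between replicates of a group exceeded the difference between groups for 60 loci, or 65.9%, beside 66.1% of all genes. Over the tested loci, arrays of a group correlated at 0.955 (shControl) and 0.938 (shYTHDF3). A correlation depends on the range of levels, which was 2.54 to 6.80 for the loci and 2.54 to 13.4 for all genes. The median SD within a group was 0.13 (shControl) and 0.17 (shYTHDF3), beside 0.11 and 0.11 over all genes. Spread was not compared at matched level. Values identical to 6 decimals in a pair of arrays occurred at 3 of the tested loci (3.30%) and 191 of all genes tested. A typical 95% interval of a difference reached 0.37 to either side, so smaller differences could not be told from 0 with 2 arrays a group.

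The locus closest to the threshold was MIR181B1. Control arrays read 7.08 and 7.17 for MIR181B1, and knockdown arrays 6.29 and 6.46. A difference of -0.75 (SE 0.13, 1.68-fold lower) had an adjusted p of 0.067 from limma. MIR23A, MIR197 and MIR181D followed at adjusted p-values of 0.077, 0.082 and 0.115. With an adjusted p threshold of 0.10, 3 loci (MIR181B1, MIR197 and MIR23A, all lower) were called, where 1.96% of all genes were. Of these, MIR23A had passed the filter only through its control group, at means of 2.94 (shControl) and 2.21 (shYTHDF3). When the variance model followed intensity, limma called MIR181B1 and MIR23A, where 2.94% of all genes were called. With the filter at the 50th percentile it called MIR181B1 alone, where 1.61% of all genes were called. The adjusted p of MIR181B1 ran from 0.015 to 0.39 over all alternatives. That of MIR23A ran from 0.040 to 0.28 over those that tested it: its mean fell under the filter at the 50th percentile and when either control array was left out.

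**Figure D2:**
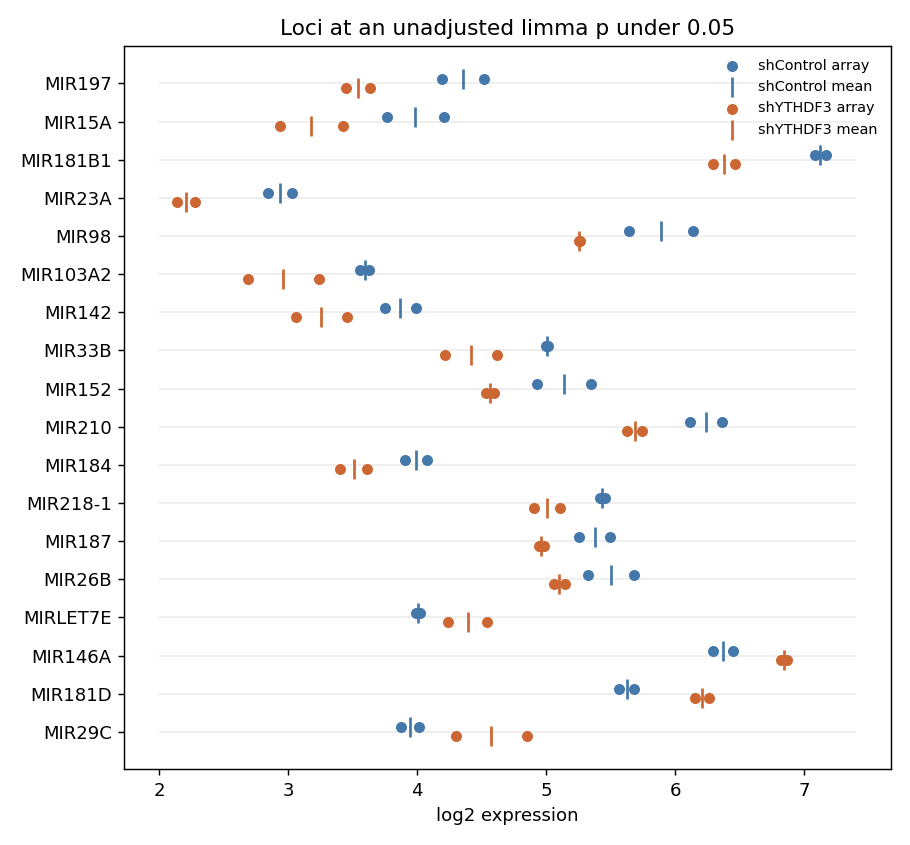
Log2 expression (horizontal axis) in each array of the 18 microRNA loci at an unadjusted limma p under 0.05, ordered by difference; points are arrays, vertical ticks are group means, blue shControl and orange shYTHDF3. In all 18 the groups do not overlap, with MIR181B1 at 7.08 and 7.17 against 6.29 and 6.46.

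The miR-181 loci, known from lymphocyte development and from several tumours, differed in both directions. MIR181A1 and MIR181B1 lie 281 bases end to end on the minus strand (chr1:198858873-198859153, GRCh38.p14) within the long noncoding host gene MIR181A1HG. At MIR181A1 the values were 2.56 and 2.41 in control and 1.86 and 1.97 in knockdown arrays. Its mean of 2.20 was below the filter, so it had no test, and its difference was -0.57. The host transcript lay at 6.38 and 6.42 in control and 5.76 and 5.75 in knockdown arrays, a difference of -0.64 (SE 0.12, adjusted p = 0.081 from limma). All 3 probe sets of this locus thus had lower values in both shYTHDF3 arrays than in either control array. MIR181C and MIR181D, 313 bases end to end at chr19:13874699-13875011 on the plus strand, stood the other way. MIR181D stood at 5.57 and 5.68 in control arrays, against 6.26 and 6.16 after knockdown. The difference was 0.59 (SE 0.13, adjusted p = 0.115 from limma). For MIR181C, values of 4.62 and 4.62 with shControl compare with 4.85 and 4.83 with shYTHDF3. The difference was 0.22 (adjusted p = 0.46), and the arrays of the groups did not overlap. NANOS3, whose RefSeq span holds both, had a difference of 0.12 (adjusted p = 0.72). MIR181A2 gave 2.79 and 2.55 in the shControl arrays and 2.71 and 3.23 in the shYTHDF3 arrays. Its difference of 0.30 lay within an interval of -0.16 to 0.76, and its partner MIR181B2 was just below the filter. Whether the miR-181 loci differ from each other in their response was not tested.

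The miR-23/27/24 clusters carry microRNAs linked to angiogenesis, adipogenesis and muscle differentiation. The chromosome 19 copy spans 373 bases (chr19:13836287-13836659, minus strand). Control arrays read 2.84 and 3.03 for MIR23A, and knockdown arrays 2.28 and 2.14. The difference was -0.73 (SE 0.14, 1.66-fold lower, adjusted p = 0.077 from limma), and both knockdown values were under the filter of 2.54. At MIR27A the values were 4.79 and 5.79 in control and 4.63 and 4.83 in knockdown arrays. These overlap, because 1 control array stood about as low as the knockdown arrays, and the difference of -0.56 had an interval of -1.25 to 0.13. MIR24-2 stood at 6.09 and 6.38 in control arrays, against 5.94 and 5.89 after knockdown. The groups did not overlap and the difference was -0.32 (adjusted p = 0.37). All 3 loci of this copy thus had a negative difference, though without shControl replicate 2 that of MIR27A was only -0.056 and that of MIR24-2 was -0.17. The chromosome 9 copy, inside AOPEP, did not show a difference of that size. For MIR23B, values of 4.68 and 4.82 with shControl compare with 4.94 and 4.70 with shYTHDF3. MIR27B gave 3.62 and 4.24 in the shControl arrays and 4.10 and 3.90 in the shYTHDF3 arrays. Both pairs of groups overlap, with differences of 0.07 and 0.07 and intervals of -0.27 to 0.41 and -0.43 to 0.56. MIR24-1 lay below the filter at 2.00, and AOPEP itself had a difference of 0.10. The difference between the copies was not tested.

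In the miR-15/16 clusters, which target cyclins and BCL2 and were first known from a deletion in chronic lymphocytic leukaemia, 4 of 5 tested loci had a negative difference. Control arrays read 4.21 and 3.76 for MIR15A, and knockdown arrays 3.42 and 2.94. The control arrays were higher, and the difference of -0.81 (SE 0.21, 1.75-fold lower) had an adjusted p of 0.16 from limma. MIR16-1, from the same 229 bases at chr13:50048973-50049201 within DLEU2, stood the other way. At MIR16-1 the values were 3.04 and 3.19 in control and 3.41 and 3.35 in knockdown arrays. The groups did not overlap, at a difference of 0.27 (adjusted p = 0.39). The 2 loci thus had differences of opposite sign although RefSeq places them beside each other on the same strand. MIR15B stood at 3.26 and 2.56 in control arrays, against 2.60 and 2.92 after knockdown. For MIR16-2, values of 4.53 and 3.95 with shControl compare with 4.65 and 3.56 with shYTHDF3. Both lie in SMC4, a condensin subunit gene with a difference of -0.02, and both overlap between groups, at -0.15 and -0.14. MIR195 gave 3.18 and 3.43 in the shControl arrays and 2.94 and 3.08 in the shYTHDF3 arrays. The groups did not overlap, with a difference of -0.30 (adjusted p = 0.39), while MIR497HG, which holds it, had 0.07.

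Of the let-7 family, which restrains LIN28B, HMGA2 and RAS genes in differentiated cells, 9 of 11 loci were tested, counting MIR98 and MIR202, and 6 of the 9 had a negative difference, with a median of -0.11. Control arrays read 5.65 and 6.14 for MIR98, and knockdown arrays 5.25 and 5.26. The knockdown arrays agreed closely and were lower, at a difference of -0.64 (SE 0.18, adjusted p = 0.175 from limma), which was -0.39 without shControl replicate 2. MIRLET7F2, its neighbour 1052 bases end to end in HUWE1 on the X chromosome, lay below the filter at 1.95. At MIRLET7E the values were 3.99 and 4.02 in control and 4.24 and 4.54 in knockdown arrays. The difference was 0.39 (SE 0.15, adjusted p = 0.29), or 0.24 without shYTHDF3 replicate 2. MIRLET7I stood at 6.02 and 6.14 in control arrays, against 5.96 and 5.71 after knockdown. Here the groups did not overlap, but the difference of -0.25 had an interval of -0.59 to 0.09. For MIRLET7A3, values of 4.95 and 5.23 with shControl compare with 4.96 and 4.98 with shYTHDF3. MIRLET7G gave 3.47 and 3.39 in the shControl arrays and 3.22 and 3.40 in the shYTHDF3 arrays. Control arrays read 2.66 and 2.63 for MIR202, and knockdown arrays 2.56 and 2.55. These 3 had differences of -0.12, -0.12 and -0.09, none with an unadjusted p under 0.05. The loci of the chromosome 9 let-7 cluster (chr9:94175957-94178920) showed no common direction. At MIRLET7A1 the values were 4.01 and 4.11 in control and 3.95 and 4.19 in knockdown arrays. MIRLET7F1 stood at 3.46 and 2.53 in control arrays, against 3.31 and 2.78 after knockdown. For MIRLET7D, values of 5.39 and 5.39 with shControl compare with 5.67 and 4.88 with shYTHDF3. Their differences were 0.01, 0.05 and -0.11, and in all 3 the groups overlap. The shYTHDF3 arrays of MIRLET7D lay on either side of both control arrays. MIRLET7C was below the filter.

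MIRLET7E shares 728 bases at chr19:51692612-51693339 with MIR99B and MIR125A. MIR99B gave 5.62 and 6.26 in the shControl arrays and 5.70 and 6.25 in the shYTHDF3 arrays. Replicate 2 was the higher array in both groups, and the difference was 0.03. MIR125A was below the filter. Control arrays read 3.78 and 4.19 for MIR99A, and knockdown arrays 4.05 and 3.47. Its difference of -0.22 had an interval of -0.75 to 0.31, and its host MIR99AHG had -0.20. MIRLET7C and MIR125B2 of that cluster were not tested.

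MIR29C had the largest positive difference of the tested loci over all 4 arrays. miR-29 represses collagen and other matrix transcripts. At MIR29C the values were 4.01 and 3.88 in control and 4.30 and 4.85 in knockdown arrays. The difference was 0.63 (SE 0.19, 1.55-fold higher, adjusted p = 0.21 from limma). The second knockdown array set much of it: without that array the difference was 0.35, and MIR181D stood above it at 0.64. Its partner MIR29B2 lay at 2.26, below the filter, as did MIR29B1 at 1.88. MIR29A stood at 3.99 and 2.83 in control arrays, against 3.997 and 2.92 after knockdown. Replicate 1 exceeded replicate 2 by over 1 in both groups and the difference was 0.05, with an interval of -0.97 to 1.06, so a difference of the size seen at MIR29C was not detectable there.

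MIR146A, a feedback inhibitor of NF-kB signalling and the third highest of the tested loci, was higher in the knockdown arrays. For MIR146A, values of 6.29 and 6.45 with shControl compare with 6.82 and 6.86 with shYTHDF3. The replicates lay close together and the difference was 0.47 (SE 0.13, adjusted p = 0.17 from limma), while MIR146B lay at 2.03. MIR155, another NF-kB-induced microRNA, had a difference of 0.20 at a mean of 2.71. MIR210 gave 6.12 and 6.36 in the shControl arrays and 5.63 and 5.75 in the shYTHDF3 arrays. MIR210, the best known microRNA target of hypoxia-inducible factor, thus had a difference of -0.55 (SE 0.14, 1.47-fold lower, adjusted p = 0.152 from limma). MIR210HG, the host transcript, stood at -0.12 (adjusted p = 0.78).

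MIR197 had the most negative difference of all tested loci. Control arrays read 4.52 and 4.19 for MIR197, and knockdown arrays 3.64 and 3.45. The difference was -0.81 (SE 0.16, 1.76-fold lower, adjusted p = 0.082 from limma). GNAI3, whose RefSeq span holds it, was not tested. At MIR142 the values were 3.75 and 3.99 in control and 3.45 and 3.06 in knockdown arrays. This haematopoietic locus had a difference of -0.61 (adjusted p = 0.18). MIR33B stood at 4.999 and 5.01 in control arrays, against 4.62 and 4.22 after knockdown. MIR33B, an inhibitor of cholesterol export encoded in an intron of SREBF1, had -0.59 (SE 0.16, adjusted p = 0.17), or -0.39 without shYTHDF3 replicate 2, whereas SREBF1 had 0.08 (adjusted p = 0.86), and the related MIR33A was below the filter. For MIR184, values of 3.91 and 4.08 with shControl compare with 3.40 and 3.61 with shYTHDF3. MIR187 gave 5.25 and 5.50 in the shControl arrays and 4.95 and 4.98 in the shYTHDF3 arrays. The differences of these were -0.48 and -0.41 (adjusted p = 0.19 and 0.24 from limma). Control arrays read 5.33 and 5.68 for MIR26B, and knockdown arrays 5.06 and 5.15. It differed by -0.40 (adjusted p = 0.31), or -0.22 without shControl replicate 2, and its relatives MIR26A1 and MIR26A2 lay below the filter at 2.51 and 2.01.

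At MIR218-1 the values were 5.42 and 5.46 in control and 5.11 and 4.91 in knockdown arrays. MIR218-1, which targets ROBO1 and lies in SLIT2, had a difference of -0.43 (SE 0.14, adjusted p = 0.22 from limma) and SLIT2 itself -0.23 (adjusted p = 0.44). MIR218-2 stood at 3.46 and 3.39 in control arrays, against 3.78 and 3.23 after knockdown. At this second locus, in SLIT3, the groups overlap and the difference was 0.08. For MIR152, values of 4.93 and 5.35 with shControl compare with 4.53 and 4.60 with shYTHDF3. MIR152, which represses the DNA methyltransferase DNMT1, had -0.58 (SE 0.17, adjusted p = 0.18 from limma), or -0.37 without shControl replicate 2. MIR148A and MIR148B, which share its family, lay below the filter.

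MIR130B gave 6.30 and 6.91 in the shControl arrays and 6.67 and 7.30 in the shYTHDF3 arrays. Replicate 2 was higher in both groups, the groups overlap, and the difference of 0.37 had an interval of -0.24 to 0.98. A second probe set of MIR130B gave 4.56 and 4.69 against 4.60 and 4.69, a difference of 0.02. Control arrays read 2.99 and 3.26 for MIR130A, and knockdown arrays 2.84 and 3.01. The difference was -0.20. At MIR103A2 the values were 3.63 and 3.56 in control and 2.69 and 3.24 in knockdown arrays. Lying in an intron of the pantothenate kinase gene PANK2, this locus had a difference of -0.63 (SE 0.19, adjusted p = 0.20 from limma), but its second probe set above the filter gave 2.57 and 2.71 against 2.74 and 2.50, a difference of -0.02. The difference of the first probe set was -0.35 without shYTHDF3 replicate 1. PANK2 itself differed by 0.19. MIR107 stood at 3.56 and 3.71 in control arrays, against 4.24 and 3.53 after knockdown. The difference was 0.25 with overlapping groups, and its second probe set, at 3.64 and 3.0 against 2.53 and 3.82, gave -0.15. For the 3 loci with a second probe set above the filter, the probe sets therefore did not give the same difference.

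MIR106B, MIR93 and MIR25, which restrain CDKN1A and the TGF-beta pathway, lie in an intron of MCM7, a subunit of the replicative helicase. For MIR25, values of 4.26 and 4.71 with shControl compare with 4.89 and 4.82 with shYTHDF3. The groups did not overlap, at a difference of 0.37 (adjusted p = 0.38 from limma). MIR106B gave 4.31 and 4.42 in the shControl arrays and 4.42 and 4.44 in the shYTHDF3 arrays. Control arrays read 2.94 and 2.74 for MIR93, and knockdown arrays 2.81 and 2.60. These differed by 0.07 and -0.13. MCM7 stood at 7.47 and 7.55 in control and 8.15 and 7.87 in knockdown arrays, a difference of 0.50 (SE 0.15, adjusted p = 0.19 from limma), so MIR25 and MCM7 both had positive differences and MIR93 a negative one.

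At MIR30A the values were 3.69 and 5.05 in control and 3.86 and 3.71 in knockdown arrays. A single high control array set this mean, and the difference of -0.59 had an interval of -1.48 to 0.31. MIR30C2 stood at 4.33 and 4.57 in control arrays, against 4.51 and 3.93 after knockdown. For MIR30E, values of 5.58 and 5.36 with shControl compare with 5.75 and 5.26 with shYTHDF3. They overlap between groups, with differences of -0.23 and 0.04, and MIR30B, MIR30C1 and MIR30D were below the filter. MIR194-2 gave 4.79 and 4.62 in the shControl arrays and 3.47 and 4.80 in the shYTHDF3 arrays. Here a single low knockdown array set the difference of -0.57, with an interval of -1.44 to 0.30. Control arrays read 2.88 and 2.76 for MIR192, and knockdown arrays 2.90 and 2.53. Its difference was -0.10. Both are liver- and gut-enriched microRNAs.

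At MIR138-1 the values were 4.80 and 4.57 in control and 4.001 and 4.75 in knockdown arrays. MIR138-2 stood at 2.82 and 3.27 in control arrays, against 2.87 and 3.20 after knockdown. Neither locus of this brain-enriched microRNA separated the groups, at differences of -0.31 and -0.01. For MIR134, values of 4.24 and 4.97 with shControl compare with 4.93 and 5.26 with shYTHDF3. The locus makes a microRNA that limits dendritic spine size. The difference of 0.49 had an interval of -0.08 to 1.06, since the lowest control array was far below the others. MIR127 gave 5.89 and 6.17 in the shControl arrays and 5.86 and 5.62 in the shYTHDF3 arrays. This other tested locus of the imprinted 14q32 region had a difference of -0.29, with no overlap of the groups (adjusted p = 0.44 from limma). Control arrays read 4.42 and 4.50 for MIR151B, and knockdown arrays 4.61 and 5.01. MIR151B completed the largest positive differences at 0.35 (adjusted p = 0.37), with no overlap, and its strand is not shown.

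At MIR141 the values were 2.73 and 2.90 in control and 2.72 and 3.17 in knockdown arrays. MIR200A stood at 2.65 and 2.61 in control arrays, against 2.58 and 2.65 after knockdown. For MIR200B, values of 3.28 and 3.33 with shControl compare with 2.95 and 3.24 with shYTHDF3. The tested loci of the miR-200 clusters had differences of 0.13, -0.02 and -0.21, with groups that overlap except at MIR200B. MIR200C, below the filter, lay at 2.67 and 2.66 in control and 1.96 and 2.16 in knockdown arrays. MIR196A1 gave 2.25 and 2.59 in the shControl arrays and 2.53 and 2.79 in the shYTHDF3 arrays. Control arrays read 2.91 and 2.88 for MIR196A2, and knockdown arrays 2.63 and 2.89. At MIR196B the values were 2.60 and 2.47 in control and 2.71 and 2.43 in knockdown arrays. These HOX-embedded loci had differences of 0.24, -0.13 and 0.03, all with overlapping groups and all close to the filter.

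**Figure D3:**
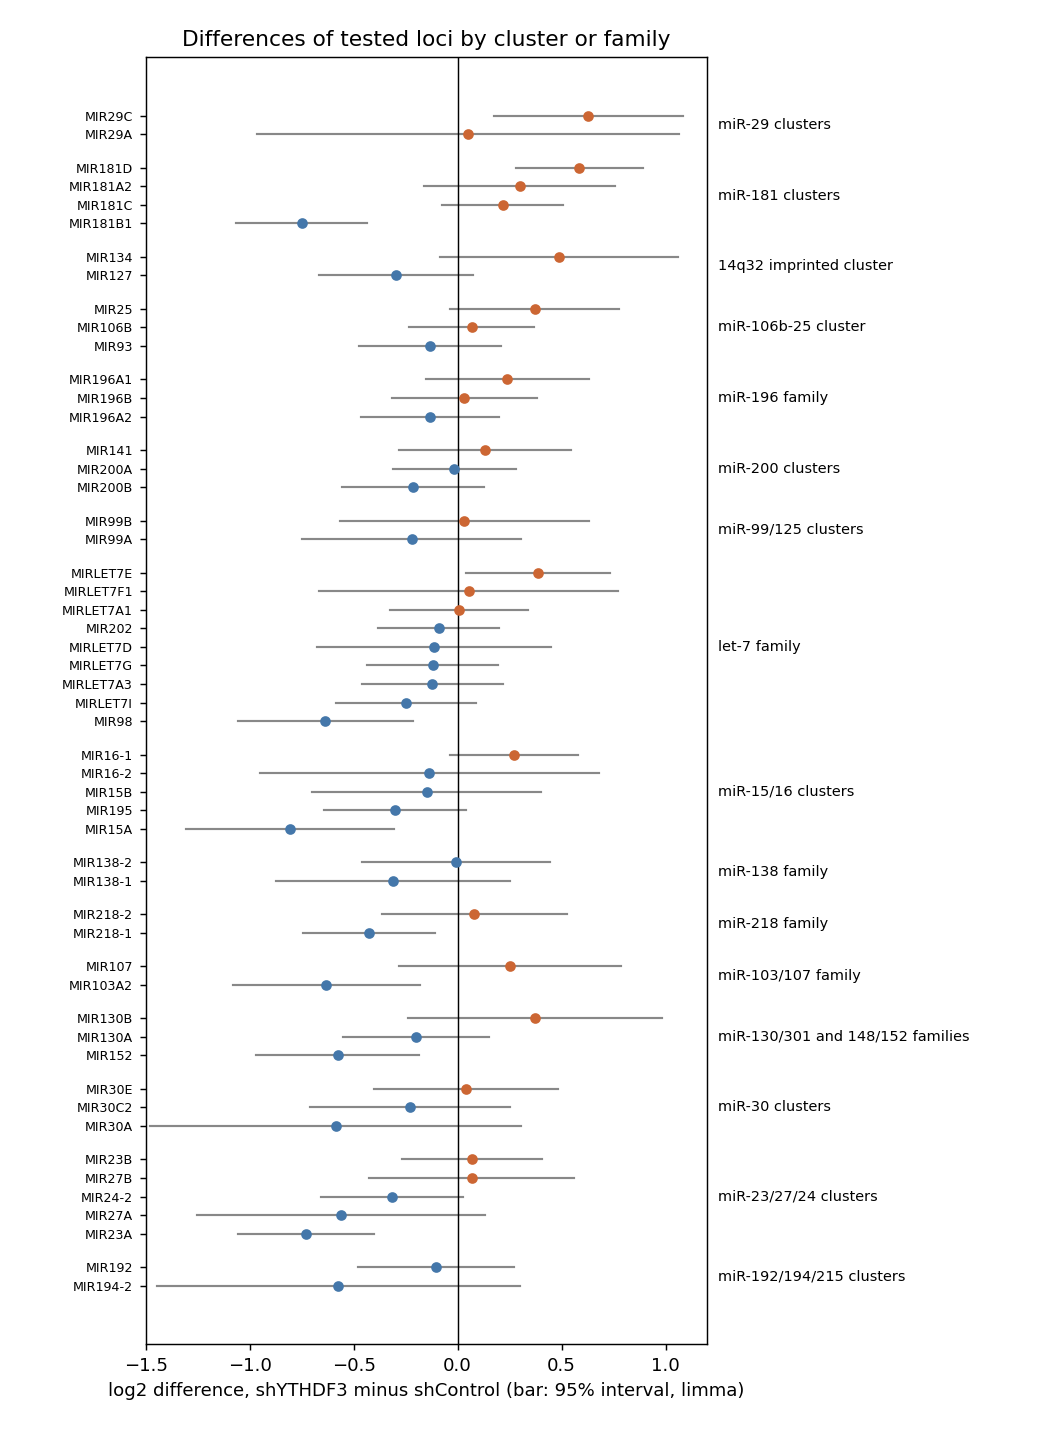
Log2 differences, shYTHDF3 minus shControl (points), with 95% intervals from limma (bars) for the 52 tested loci of the 16 clusters or families with at least 2 tested loci; orange points are above 0 and blue points below. The miR-181 loci span -0.75 to 0.59, and the 3 loci of the MIR23A copy lie below 0 while MIR23B and MIR27B lie at 0.07.

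The remaining 30 tested loci had no unadjusted p under 0.05 and lay outside these groups. Their differences ran from -0.36 at MIR150 to 0.28 at MIR185. By position, with hairpins on the same strand within 10 kb joined, 10 clusters had at least 2 tested loci. The 8 tested loci without a position in the RefSeq table, MIR93 among them, are left out of these clusters. In 7 clusters the tested loci with a position had differences of a single sign, but MIR25 and MIR106B, positive here, would be joined by the negative MIR93. In 3 (MIR15A with MIR16-1, the chromosome 9 let-7 cluster, and MIR105-1 with MIR105-2) the signs differed. Whether loci of a cluster share a sign more often than unrelated loci was not tested. Within the 7 clusters, MIR192, MIR194-2, MIR15B, MIR16-2, MIR99B, MIR23B and MIR27B each changed sign when 1 array was left out. Differences of MIR99B, MIR23B and MIR27B were only 0.03, 0.07 and 0.07.

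RefSeq placed 63 of the tested loci inside a gene on the same strand, and for 27 of these that gene was itself tested. The 27 pairs involve 22 genes. Left out are the 8 tested loci without a position in the RefSeq table. MIR93 is among these, at -0.13 beside 0.50 for MCM7, so a pair of opposite sign is missing. Locus and surrounding gene had differences of the same sign in 17 pairs, with a Spearman correlation of 0.52 and a Pearson correlation of 0.52 between the differences. This is a description across pairs that share arrays and, for some, the surrounding gene, and RNA of the surrounding gene and of the locus cannot be told apart here. None of the 22 genes passed limma, beside 0.753% of all genes tested, and 4 (MIR181A1HG, MCM7, TANGO2 and TMEM245) had an unadjusted p under 0.05, which is 18.2% beside 14.7% of all genes. MIR185 and TANGO2 had differences of 0.28 and 0.37, but MIR32 and TMEM245 had -0.02 and 0.43. Other pairs were MIR107 with PANK1 (0.25 and 0.31) and MIR218-2 with SLIT3 (0.08 and -0.11). MIRLET7G had -0.12 and WDR82 0.24, while SPACA6 had 0.23 beside 0.39 for MIRLET7E and 0.03 for MIR99B. MIR181A2HG, of unknown strand and so not paired, had -0.02 beside 0.30 for MIR181A2.

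**Figure D4:**
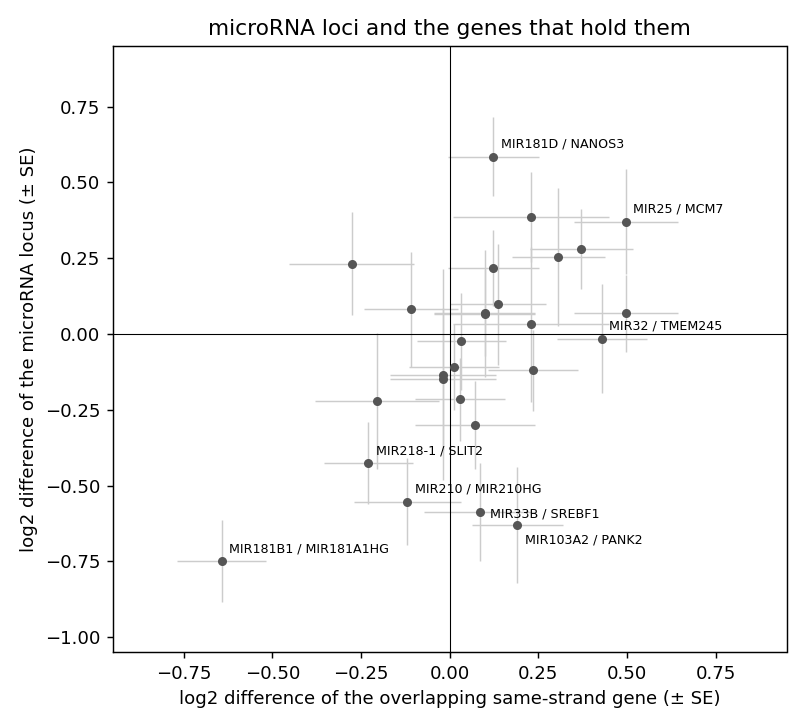
Log2 difference of each microRNA locus (vertical axis) against that of the tested gene on the same strand that holds it (horizontal axis), 27 pairs, bars ± SE from limma. MIR181B1 with MIR181A1HG lies at the lower left (-0.75 and -0.64), while MIR33B and MIR103A2 lie low beside surrounding genes at 0.08 and 0.19.

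Transcripts of the microRNA processing machinery formed a separate list. Of its 40 genes 25 were named on the array and 23 tested. The genes of Drosha, Dicer and the Argonaute proteins were not among the 23, so the list says nothing of their transcripts. None passed limma over all genes, and 1 had an unadjusted p under 0.05, which is 4.35% beside 14.7% of all genes. DGCR8, the RNA-binding partner of Drosha, lay at 5.17 and 5.25 in control and 5.93 and 5.67 in knockdown arrays, a difference of 0.59 (SE 0.14, adjusted p = 0.133 from limma). KHSRP, which binds the terminal loop of some precursors, lay at 8.21 and 8.38 against 8.62 and 8.55, a difference of 0.29. SRRT (ARS2), which links capped primary transcripts to Drosha, lay at 6.52 and 6.82 against 6.99 and 6.96, a difference of 0.30. The exonuclease XRN1, at 7.39 and 7.25 against 7.11 and 7.14, had -0.20. The list's median difference was 0.00, with a range of -0.20 to 0.59.

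A list of 71 transcripts known to carry or surround conserved microRNAs had 34 tested members of 37 on the array. None passed limma, and 5 lower and 1 higher had an unadjusted p under 0.05 (17.6% beside 14.7% of all genes). DNM1, the neuronal dynamin, which holds MIR199B on its opposite strand, had -0.74 at values of 6.11 and 6.18 against 5.44 and 5.37 (adjusted p = 0.058 from limma), and MIR199B itself lay below the filter. MIR100HG, host of the excluded miR-100 locus, had -0.36 at 5.07 and 5.12 against 4.61 and 4.86 (adjusted p = 0.30). Among 15 tested let-7 targets of 16 on the array, none passed limma, beside 0.753% of all genes, and 2 lower and 2 higher had an unadjusted p under 0.05, which is 26.7% beside 14.7% of all genes. CDC25A, a cell cycle phosphatase, had 0.81, CCND1 (cyclin D1) 0.49, MYC -0.63 and the chromatin protein HMGA1 -0.32, with adjusted p-values from limma of 0.081 to 0.33. The median difference of the 15 was 0.02, with 5 below 0 and 10 above. HMGA2 had 0.02 (adjusted p = 0.97 from limma).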

How the data were processed

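Biotin-labelled total RNA from 4 Affymetrix arrays gave log2 values, which the authors deposited after RMA, per the submitters' processing notes; no version or further step is given in the sources used here, and the values were used without renormalization. The platform annotation named 16098 of 53617 probe sets. Each of 14884 genes was represented by its probe set of highest mean. Genes with a mean at or above the 30th percentile of all probe sets (2.54) were tested, 12755 in all. Groups came from sample titles. In R 4.3.3, lmFit followed by eBayes of limma 3.58.1, without covariates (2 residual and 5.30 prior degrees of freedom), gave differences, standard errors, 95% intervals and p-values, adjusted by Benjamini-Hochberg over all genes tested with a threshold of 0.05. The number of arrays limits precision: the median standard error was 0.14, and an exact permutation test of 2 against 2 cannot go below 0.333. The fit was tested on simulated data, but only with planted changes larger than any difference among the tested loci. Recovery of differences of the size seen here was not simulated.

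Members, clusters and gene lists were chosen with earlier results of these data known. Array values are given for loci with an unadjusted p under 0.05, the 8 largest differences each way, the 6 highest means and clusters with at least 2 tested loci, 61 in all. Of the processing and host lists, the 4 genes of smallest p have array values, and some other hosts of described loci are given by their differences. Hairpin positions, surrounding genes and mature strands came from RefSeq (GRCh38.p14), which matched 149 of 167 loci. Alternatives covered the filter, probe-set choice, normalization, variance model, threshold, replicate block and leaving out each array. The replicate numbers were not taken as pairs, since over the 12755 genes tested deviations of same-numbered arrays correlated at 0.043. That correlation was not computed over the loci alone. Same-numbered arrays leaned the same way at some loci, such as MIR29A, MIR99B and MIR130B. At others, such as MIR99A and MIR107, they leaned opposite ways.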

Additional observations from a re-analysis of the deposited data

How the results depend on the processing

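The tested microRNA loci gave 0 calls except with the filter at the 50th percentile (1 call), an intensity trend in the variance model (2 calls) and an adjusted p threshold of 0.10 (3 calls). Host transcripts gave 0 calls except under the same 3 alternatives (1, 2 and 2 calls), and processing genes gave 0 calls under every alternative run. The median difference of the loci was -0.10 and moved to -0.021 with no filter, which adds the 76 loci of weak signal. Leaving out each array in turn left 0 calls among the loci, with 10 to 23 at an unadjusted p under 0.05 and a median between -0.11 and -0.083; the group with a lone array is then assumed to vary like the other. With the replicate number as a block, limma called 0 loci, with 22 at an unadjusted p under 0.05, and the median stayed at -0.10. The labels give same-numbered arrays only a shared number, so they do not show whether the block is a pairing. Over all genes tested the count of calls was 96, against 11 with the replicate block and 167, 375 and 250 under the 3 alternatives above. With every probe set as its own row, 15 named probe sets were called. That setting also tested the unnamed probe sets, so its p-values were adjusted over more rows than in the main fit.

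Over the 61 loci named, 797 of 833 alternative values kept direction and side of the threshold, 3 passed the threshold (MIR181B1 under 2 alternatives and MIR23A under 1) and 33, in 23 loci, changed sign, all when 1 array was left out. Lowest and highest differences without 1 array were MIR107 -0.10 to 0.61, MIR138-1 -0.68 to 0.065, MIR138-2 -0.24 to 0.22, MIR141 -0.091 to 0.36, MIR15B -0.49 to 0.20, MIR16-2 -0.68 to 0.41, MIR192 -0.29 to 0.081 and MIR194-2 -1.24 to 0.092. Ranges of the same kind were MIR196B -0.029 to 0.17, MIR200A -0.050 to 0.020, MIR218-2 -0.19 to 0.35, MIR23B -0.049 to 0.19, MIR27B -0.24 to 0.38, MIR29A -0.53 to 0.63, MIR30A -1.27 to 0.10 and MIR30C2 -0.52 to 0.058. The last ranges were MIR30E -0.21 to 0.29, MIR99A -0.51 to 0.070, MIR99B -0.29 to 0.35, MIRLET7A1 -0.11 to 0.13, MIRLET7A3 -0.26 to 0.020, MIRLET7D -0.51 to 0.28 and MIRLET7F1 -0.41 to 0.52. A further 24 loci kept their sign but moved by over 1.5 times without 1 array, among them 7 of those with an unadjusted p under 0.05. Weak signal limits these results: 24 of the 91 tested loci had a mean below 3, close to the filter of 2.54.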

Other observations

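Among the 76 loci below the filter, 11 had lower and 11 higher values in both shYTHDF3 arrays than in either control array, which is 14.5% in each direction beside 22.8% lower and 22.6% higher among all genes tested; these loci had no test. MIR296, an angiogenesis-linked microRNA just under the filter, gave 2.23 and 2.12 in control and 3.20 and 2.54 in knockdown arrays, chosen after its values were seen. MIR219A1 had 6 probe sets, of which 5 held identical values, so its repeats on the array are not separate measurements.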
